A study of Mus musculus with 6 samples.

Results

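The genes described here are 10 genes of the melanocyte lineage and of Kit signalling, picked by symbol out of 43274 genes in expression tables of mouse bulge stem cells (SCs). They are the pigment genes Tyr, Tyrp1, Dct, Pmel and Mlana, the transcription factors Mitf and Sox10, the receptors Kit and Ednrb, and the Kit ligand Kitl. All 10 were present in the tables, and 8 of them reached the mean of 10 normalized counts required for testing. The gene-level RNA-seq data came from bulge SCs, the resting stem cells of the hair follicle, which were sorted by flow cytometry from epidermis at postnatal day 21 for CD34 and high α6 integrin. The 3 control libraries came from mice with 1 floxed and 1 wild-type Ilk allele and a K5-Cre transgene, given as ILK +/- in the labels. The 3 ILK-K5 libraries came from mice homozygous for the floxed Ilk allele that carried this transgene too, given as ILK -/-. Ilk encodes integrin-linked kinase, an adaptor at integrin adhesions. Cre was driven by the keratin 5 promoter, which is active in basal keratinocytes and not in melanocytes, so both genotypes carried Cre in keratinocytes and the controls had also lost 1 Ilk allele there. The mice had a mixed C57Bl6-129/Sv background, and the coat colour alleles were not given in the sources used here. Nothing in the labels says whether the libraries of a genotype came from separate mice, so the p-values measure only the spread between these libraries, which may be technical.

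Melanocytes of the hair follicle derive from the neural crest, and their stem cells share the bulge and the hair germ beneath it with the epithelial SCs. Mitf, a basic helix-loop-helix factor, is known as the master regulator of the lineage, and Sox10 and Pax3 act on the Mitf promoter. Tyrosinase (Tyr) catalyses the rate-limiting step of melanin synthesis, and its relatives Tyrp1 and Dct act further down the pathway. Pmel forms the fibrils on which melanin is laid down, and Mlana is a melanosomal membrane protein. Kit is the receptor tyrosine kinase for Kitl, a ligand that keratinocytes and dermal papilla cells present to melanoblasts, and Ednrb is the receptor through which endothelin 3 acts on them. Kit is also a defining receptor of mast cells and of some lymphoid progenitors. Mitf is made from several start sites, some of them used in many cell types and the most 3′ of them in melanocytes.

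Promoter sequences are shown for the genes that link Mitf to its targets, since the results below concern the level of Mitf and of these targets in the same libraries. RefSeq (GRCm38.p6) gave windows from 250 bases before to 50 bases after the start for 7 of the 10 genes, and not for Pmel, Mlana and Sox10. Both strands were searched for CATGTG, the core of the M-box that Mitf binds, and for TGACGTCA, the palindromic cAMP response element. The 170 bases before each start are printed 5′ to 3′ on the strand of the gene, with the matched letters in capitals. They are Tyr at chr7:87493513-87493682 (minus strand), Tyrp1 at chr4:80834043-80834212 (plus), Dct at chr14:118052247-118052416 (minus) and the most 3′ of 3 Mitf starts at chr6:97991613-97991782 (plus).
Tyr: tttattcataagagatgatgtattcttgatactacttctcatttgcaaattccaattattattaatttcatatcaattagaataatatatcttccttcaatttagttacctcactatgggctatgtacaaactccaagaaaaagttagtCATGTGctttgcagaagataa
Tyrp1: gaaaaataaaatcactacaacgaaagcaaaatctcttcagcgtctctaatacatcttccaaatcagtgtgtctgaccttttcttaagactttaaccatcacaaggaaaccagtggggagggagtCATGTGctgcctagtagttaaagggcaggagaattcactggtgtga
Dct: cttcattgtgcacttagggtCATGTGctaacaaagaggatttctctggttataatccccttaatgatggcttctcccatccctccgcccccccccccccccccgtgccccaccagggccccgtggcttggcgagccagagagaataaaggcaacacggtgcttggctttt
Mitf, most 3′ start: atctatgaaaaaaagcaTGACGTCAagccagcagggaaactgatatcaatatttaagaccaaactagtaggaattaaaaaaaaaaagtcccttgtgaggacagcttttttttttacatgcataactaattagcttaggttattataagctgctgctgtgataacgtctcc
CATGTG began 21 bases before the start of Tyr, 46 before that of Tyrp1 and 150 before that of Dct, and the Dct window held it again on the opposite strand 232 bases before the start. TGACGTCA began 153 bases before the most 3′ Mitf start. The windows of Kit, Kitl, Ednrb and the other Mitf starts held neither motif, which says only that these letters are not in those windows. Of 32851 RefSeq windows of 300 bases, 14.2% held CATGTG and 1.79% held TGACGTCA, so a match is a description of the sequence and not a binding site. The 3 Mitf starts lay 122759 and 61966 bases apart. The gene counts pooled all of them, and which start was used was not measured.

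Each library held between 8228019 and 11969072 reads on genes, and 1 read was worth 0.726 to 1.52 normalized counts, so a gene without reads in a library could still have held up to 2.18 to 4.56 normalized counts there (3 reads, counting error only). Of the Ilk exon bases, 76.7% lay in exons of Taf10 on the opposite strand and 12.9% in exons of Rrp8. The Ilk count, at 10.6, 16.7 and 38.5 in the controls and 14.8, 30.9 and 29.2 in ILK-K5, therefore does not check the genotype. Among 16368 genes tested in ILK-K5 against control with limma on log2(normalized count + 1), 3.53% were called at an adjusted p of at most 0.05, 2.93% higher and 0.599% lower in ILK-K5. At an unadjusted p under 0.05, 1339 of these 16368 genes were higher and 672 lower. The cells carried other markers that moved with the genotype. Summed macrophage markers were 166 to 201 normalized counts in the controls and 12840 to 19894 in ILK-K5, with 11 of 12 tested called higher, and Langerhans and dendritic cell markers were 80.1 to 687 and 16646 to 31390, with 3 of 6 called higher. Some markers, such as C1qb, Mrc1 and the lymphoid Cd2 (control means 1.82, 3.49 and 0.726), met the filter for testing only through ILK-K5. H2-Ab1 and Cd74 made up most of the Langerhans and dendritic sum in ILK-K5 (means 15049 and 6622), and with Itgax they were the 3 called. Cd207, Flt3 and Zbtb46 were not called (limma adjusted p = 0.148, 0.750 and 0.481), and Flt3 and Zbtb46 overlapped between the genotypes. Lymphoid markers summed to 170 to 185 and 587 to 973, with 2 of 6 called higher, and fibroblast and papilla markers to 731 to 782 and 1533 to 2497, with 1 of 4 tested called higher. The collagen genes Col3a1, Col1a1 and Col1a2 made up most of the fibroblast and papilla sum (means 46.4, 428 and 204 in the controls, 698, 772 and 393 in ILK-K5). Of the untested genes of that list, the papilla markers Alpl and Corin had 26 and 8 reads in the controls and 3 and 5 in ILK-K5. Pdgfra had 22 and 24 reads, and Lum 0 and 37. Bulge keratinocyte markers were 73794 to 183107 in the controls and 53744 to 94597 in ILK-K5, with 1 of 10, the sorting marker Cd34, called lower. Control 3 alone set the top of the control range, with 73794 and 92987 in controls 1 and 2. Krt15 and Krt5 made up most of this sum (means 58056 and 40023 in the controls, 26550 and 32525 in ILK-K5). Of the 10 log2 fold changes, 4 were above 0 and 6 below. At an unadjusted p under 0.05, 1 was higher (Krt14) and 1 lower (Cd34), against 1339 and 672 of 16368 genes tested. Endothelial markers were 125 to 271 and 142 to 151, with 0 of 3 tested called by limma at adjusted p, and 1 of the 3 was lower at an unadjusted p under 0.05. In such bulk samples fewer cells of a type and less RNA per cell cannot be told apart.

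Mitf fell in ILK-K5, and it was the single gene of the 10 that passed the test in either direction. Kit and Tyrp1 were near the detection limit in the controls and at 11.6 to 48.7 normalized counts in ILK-K5, without passing the test. The other pigment genes, Kitl and Ednrb overlapped between the genotypes. Of the 8 genes tested, limma called 1 lower and 0 higher, against 0.599% and 2.93% of all genes. At an unadjusted p under 0.05, 2 were higher and 1 lower, against 1339 and 672 of 16368 genes tested. DESeq2 on the recovered reads called Kit and Tyrp1 higher and Mitf lower, where it called 6.44% of all genes, 4.72% higher and 1.71% lower. The edgeR test called Mitf lower and 0 of the 8 higher, where it called 3.11% of all genes, 2.58% higher and 0.532% lower. All 3 ILK-K5 libraries lay above all controls for 2 of the 8 genes and below them for 1, against 10.9% and 6.95% of all tested genes. The 2 above, Kit and Tyrp1, met the filter for testing only through ILK-K5 (control means 1.01 and 2.66, ILK-K5 means 21.4 and 31.5). At their control level in both genotypes they would not have been tested, so counting them as higher is not evidence of a difference. The median log2 fold change of the 8 genes was 0.25, against 0.01 over all genes tested, and it ran from 0.07 (without control 3) to 0.54 (without ILK-K5 2) with a library left out, at 0.09 without ILK-K5 1, 0.11 without ILK-K5 3 and 0.16 without control 2.

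**Figure D1:**
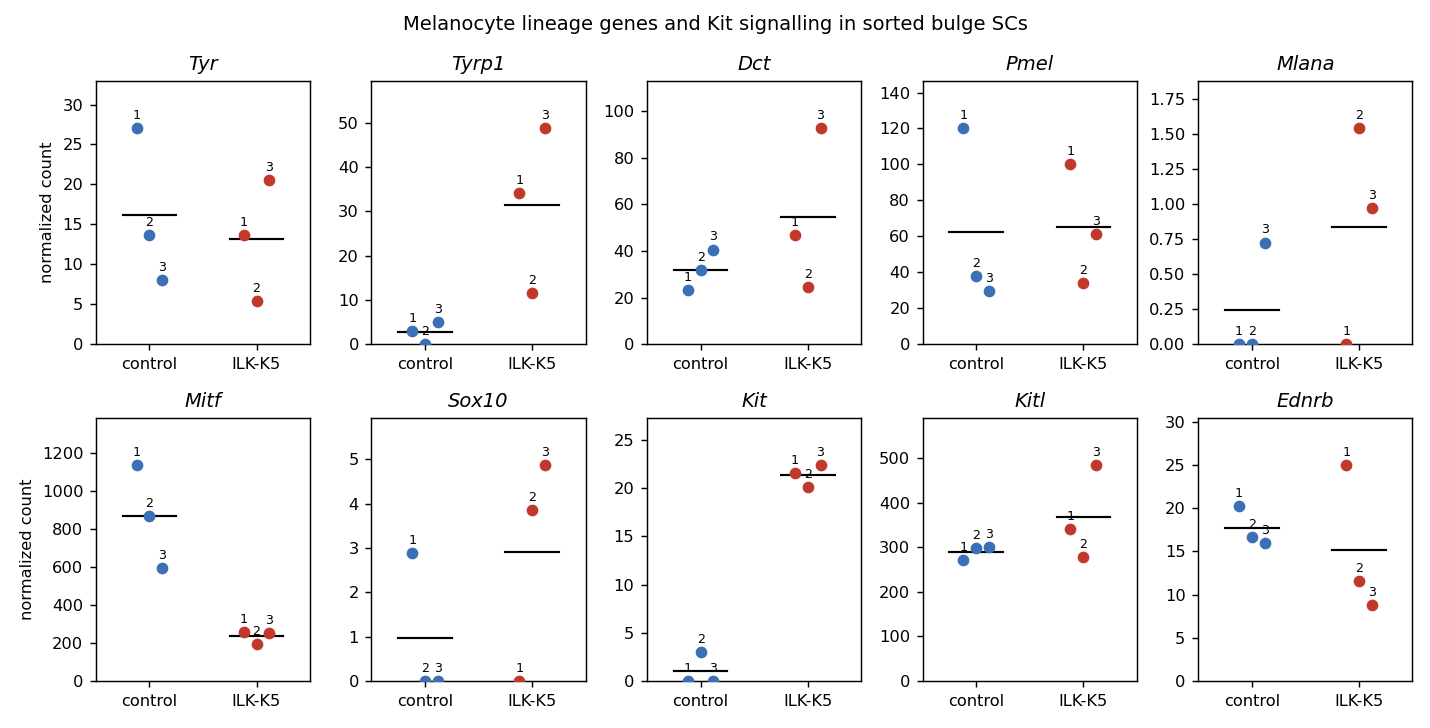
Normalized counts of the 10 genes in each library, each gene on its own axis, with control (blue) and ILK-K5 (red) side by side, library numbers 1 to 3 as point labels and bars at the mean of each genotype. Mitf lies at 596 to 1136 in the controls and 192 to 258 in ILK-K5, Kit and Tyrp1 are higher in every ILK-K5 library, and the other genes overlap or hold few reads.

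Mitf lies on chromosome 6 (chr6:97807052-98021349, plus strand, GRCm38). It was at 1136, 868 and 596 normalized counts in controls 1 to 3 and at 258, 192 and 254 in ILK-K5 1 to 3. Every ILK-K5 library was below every control, and the controls spread more widely than the ILK-K5 libraries. The means were 867 ± 270 and 235 ± 37.2 (SD, n = 3 each), a 3.69-fold lower level in ILK-K5. The log2 fold change was -1.84 (SE 0.31, 95% interval -2.54 to -1.14, limma adjusted p = 0.0118). The call was lost without control 2 (adjusted p = 0.0638) and without ILK-K5 2 (adjusted p = 0.0688), while the fold change stayed between -2.09 and -1.62 in all settings tried. Other markers moved in the same libraries. The sorting marker Cd34 fell (log2 fold change -1.90, adjusted p = 0.0239), with r = 0.82 to Mitf over the 6 libraries, and the macrophage genes Mrc1 and Csf1r had r = -0.95 and -0.93 with it. The direction of the genotype differences already fixes these correlations in part. What these markers contribute to the Mitf values was not tested. The Mitf values rested on 571 to 1177 reads in the controls and 227 to 261 in ILK-K5.

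Sox10, the neural crest factor that acts on Mitf (chr15:79154908-79165240, minus strand), was barely detected. It had 3, 0 and 0 reads in the controls and 0, 5 and 5 in ILK-K5 and was not tested. The summed reads, scaled to depth, gave a ratio of 3.20 with a 95% counting interval of 0.824 to 18.1, which includes no difference. Mlana (chr19:29697824-29708634, plus strand) had 0, 0 and 1 reads in the controls and 0, 2 and 1 in ILK-K5 and was not tested. Its depth-scaled ratio of 2.88 had a 95% counting interval of 0.231 to 151, which includes no difference. Mlana, a defining melanocyte marker, and Sox10, a marker of melanocytes and Schwann cells, thus had at most 5 reads in any library. Other genes of the lineage were detected in the same 6 libraries, Pmel at 29.7 to 120 normalized counts, Dct at 23.2 to 92.5 and Tyr at 5.40 to 27.0.

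The relatives of Mitf that share its DNA-binding domain gave unlike values. Tfec, a member of the family known from macrophages, was at 0, 1.52 and 1.45 normalized counts in the controls and 23.9, 21.6 and 22.4 in ILK-K5. It was higher in every ILK-K5 library and was called (log2 fold change 3.69, SE 0.82, adjusted p = 0.0424), from 3 reads in the controls together and 72 in ILK-K5, a depth-scaled ratio of 23.0 with a 95% counting interval of 7.57 to 114. Tfec met the filter for testing only through ILK-K5 (control mean 0.991, ILK-K5 mean 22.6). The Tfec call held in 8 of 17 other settings, with adjusted p up to 0.245, and of the 6 fits with a library left out it held only without control 1 (adjusted p = 0.0327), the others giving 0.0510 to 0.245. Tfe3, which acts with the others on lysosomal genes, was at 270, 237 and 245 in the controls and 345, 400 and 421 in ILK-K5. Its libraries did not overlap, but its log2 fold change of 0.63 (SE 0.26, adjusted p = 0.347) did not pass the test. Tfeb, a regulator of lysosomal genes, was at 51.1, 27.4 and 71.8 in the controls and 17.1, 53.2 and 30.2 in ILK-K5, with overlapping genotypes and a log2 fold change of -0.61 (adjusted p = 0.816). The macrophage marker sums given above were higher in the same ILK-K5 libraries as Tfec, and their part in the Tfec values was not tested.

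**Figure D2:**
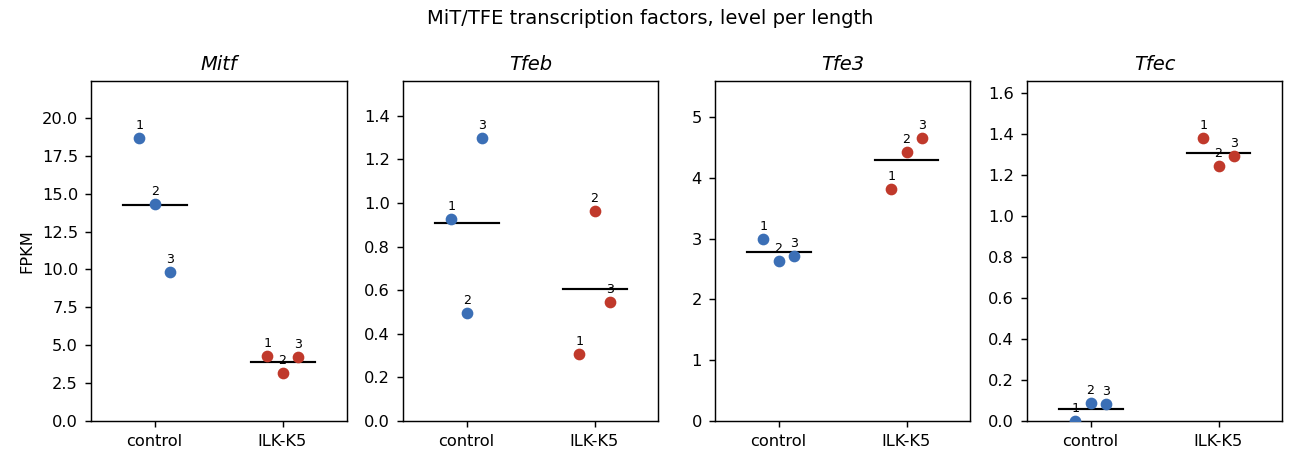
FPKM (level per length of transcript) of Mitf and its relatives Tfeb, Tfe3 and Tfec, each on its own axis from 0, in control (blue) and ILK-K5 (red), with the library number at each point and a bar at each mean. Mitf is lower in the 3 ILK-K5 libraries (mean 14.3 against 3.88), Tfec (0.0571 against 1.30) and Tfe3 (2.78 against 4.30) are higher in all 3, and Tfeb overlaps.

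None of the tyrosinase family passed the limma test, and Tyrp1 stood apart from Dct and Tyr in not overlapping between the genotypes. Tyrp1, which stabilises tyrosinase and acts late in eumelanin synthesis (chr4:80834123-80851719, plus strand), was at 2.89, 0 and 5.08 normalized counts in the controls and 34.2, 11.6 and 48.7 in ILK-K5. The genotypes did not overlap, and ILK-K5 2 was the lowest of its group. Its log2 fold change was 3.29 (SE 0.94, 95% interval 1.16 to 5.41, adjusted p = 0.119), so it did not pass the test. It rested on 3, 0 and 7 reads in the controls and 30, 15 and 50 in ILK-K5, and the depth-scaled ratio of the summed reads was 9.12 (95% counting interval 4.75 to 19.6). DESeq2 called it (log2 fold change 3.41, adjusted p = 0.0133), and over all settings tried the adjusted p ran from 0.0133 to 0.527.

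Dct, the dopachrome tautomerase expressed early in melanoblasts (chr14:118012790-118052244, minus strand), was at 23.2, 31.9 and 40.6 normalized counts in the controls and 46.7, 24.7 and 92.5 in ILK-K5. ILK-K5 2 lay among the controls, and the mean was 1.71-fold higher in ILK-K5 (log2 fold change 0.60, SE 0.57, 95% interval -0.69 to 1.88, adjusted p = 0.814). Tyr (chr7:87424771-87493512, minus strand) was at 27.0, 13.7 and 7.98 in the controls and 13.7, 5.40 and 20.5 in ILK-K5. The highest and the lowest Tyr value came from different genotypes, and the log2 fold change was -0.29 (SE 0.75, 95% interval -1.98 to 1.40, adjusted p = 0.943). The intervals of Dct and Tyr include both 0 and changes of more than 1 log2 unit, so neither a difference nor its absence was shown. Between Tyrp1 and Tyr the difference in fold change was not tested.

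Pmel (chr10:128704195-128720238, plus strand) was at 120, 38.0 and 29.7 normalized counts in the controls and 100, 33.9 and 61.4 in ILK-K5. The library numbered 1 was the highest in both genotypes, and the log2 fold change was 0.20 (SE 0.62, 95% interval -1.20 to 1.60, adjusted p = 0.955). Of its exon bases, 6.06% overlapped Cdk2 and Dgka on the opposite strand, and the counting by strand is not given in the sources used here. No other of the 10 genes shared exon bases with a neighbour.

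The other melanosome and pigment genes gave 0 of 7 tested called by limma in either direction, against 3.53% of all genes tested. At an unadjusted p under 0.05, 1 of the 7 was higher, against 1339 of 16368 genes tested. The median log2 fold change of the 7 was 0.44, against 0.01 over all genes tested. The highest was Rab32, which with Rab38 carries tyrosinase family proteins to melanosomes and is also expressed in macrophages, at 1.52 (adjusted p = 0.168), and the lowest was Rab38 at -0.60 (adjusted p = 0.701). Trpm1, a melanocyte channel gene under Mitf control, was at 8.68, 4.56 and 10.2 normalized counts in the controls and 15.9, 13.1 and 17.5 in ILK-K5, without overlap (log2 fold change 0.96, adjusted p = 0.706). Its control mean of 7.80 was below the filter, so it was tested only through ILK-K5 (mean 15.5). The pigment transporter Slc45a2 had 0 reads in each control and 1, 3 and 3 in ILK-K5. Gpr143, the melanosomal receptor, had at most 2 reads in any library. Mc1r, the melanocortin receptor that sets pigment type, had 2, 0 and 10 reads in the controls and 3, 3 and 1 in ILK-K5.

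**Figure D3:**
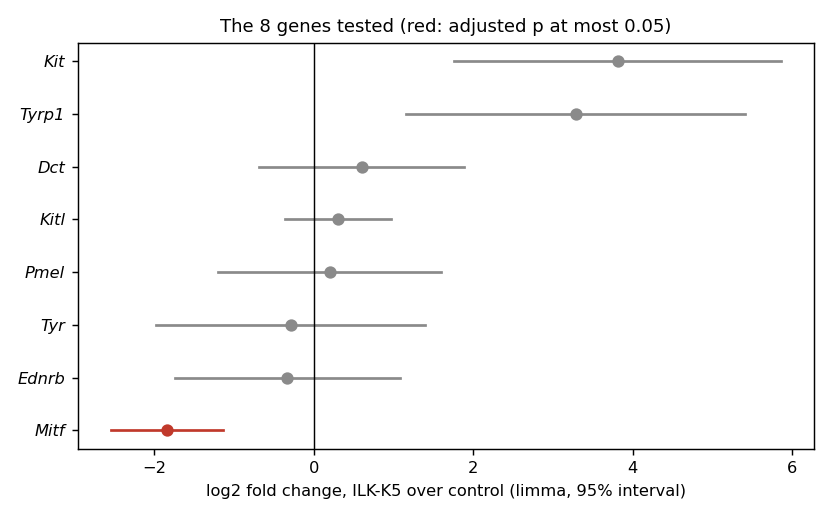
Log2 fold change (ILK-K5 minus control, log2(normalized count + 1)) of the 8 genes tested, with 95% intervals from limma and the called gene in red. The interval of Mitf (-2.54 to -1.14) and those of Kit (1.76 to 5.86) and Tyrp1 (1.16 to 5.41) leave out 0, and the other 5 include it. Of the 3 genes, Mitf alone passed the adjusted test, and Kit and Tyrp1 met the filter for testing only through ILK-K5.

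Kit, the receptor for Kitl (chr5:75574916-75656722, plus strand), was at 0, 3.04 and 0 normalized counts in the controls and 21.6, 20.1 and 22.4 in ILK-K5. These are 0, 2 and 0 reads against 19, 26 and 23, and the 3 ILK-K5 libraries were close together and above every control. The log2 fold change was 3.81 (SE 0.91, 95% interval 1.76 to 5.86), and its adjusted p of 0.0578 did not pass. With 2 reads in the controls, the depth-scaled ratio of summed reads was 32.6 with a 95% counting interval of 8.69 to 275, and the fold change on the log scale depended on the pseudocount (2.17 with 5). Kit was called in 5 of 17 other settings, among them DESeq2 (4.81, adjusted p = 0.00782), a pseudocount of 5 (adjusted p = 0.0370), a term for the number in the sample description (adjusted p = 0.0274) and the fit without control 2, the control with reads (4.48, adjusted p = 0.0390). The adjusted p ranged to 0.291 over the settings tried.

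Mast cell markers were not higher in the libraries with more Kit. Of 11 mast cell genes, 7 had at most 3 reads in every library and Cpa3, Tpsb2 and Tpsab1, which encode mast cell proteases, had 0 reads in all 6. Their sum was 35.6 to 56.9 normalized counts in the controls and 1.54 to 18.2 in ILK-K5, and Hdc, the single gene tested, was lower in ILK-K5 (log2 fold change -1.93, adjusted p = 0.396, not called). Hdc was the largest part of this sum in every library, at 19.8 to 47.3 in the controls and 1.54 to 18.2 in ILK-K5. Ms4a2 and Mrgprb2 had 11 and 21 reads in the controls and 0 in ILK-K5. Lymphoid and macrophage markers were higher in the same ILK-K5 libraries as Kit. The lymphoid receptor Il7r rose, with a log2 fold change of 4.96 (adjusted p = 6.07e-04), as did Cd2, a T and NK cell surface protein (4.94, adjusted p = 0.00968). Cd2 met the filter for testing only through ILK-K5 (control mean 0.726, ILK-K5 mean 44.5). The other 4 lymphoid markers were not called, and the T cell receptor subunit gene Cd3d had a log2 fold change of -0.47 with overlapping genotypes. Il7r made up most of the lymphoid sum in ILK-K5, at a mean of 402 normalized counts against 11.1 in the controls. The gene whose level ran closest to Kit over the 6 libraries was BC117090 (r = 0.998), followed by Cd300c2 and Fgl2 (both r = 0.995), known from myeloid cells. Their log2 fold changes were 5.21, 6.90 and 6.01, and such large genotype differences already fix much of their r with Kit. Cd34, which fell, had r = -0.97 with Kit, so these correlations do not show which cells held Kit. The part of these cells in the Kit values was not tested.

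**Figure D4:**
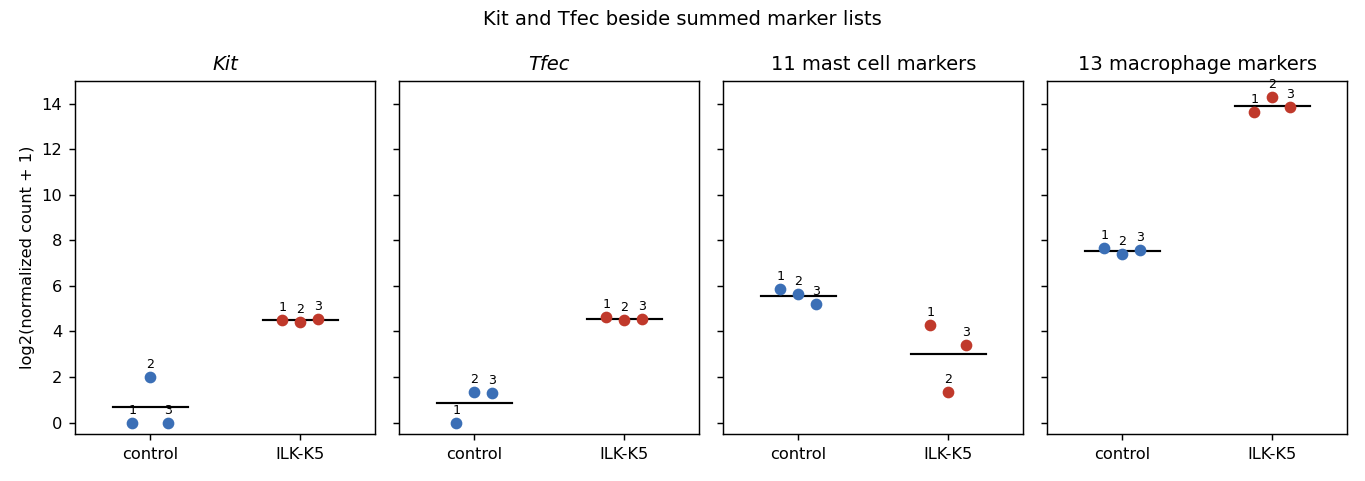
Kit and Tfec beside the summed levels of 11 mast cell and 13 macrophage markers, as log2(normalized count + 1) in control (blue) and ILK-K5 (red), with library numbers as labels and bars at the means. In normalized counts Kit is at most 3.04 in the controls and 20.1 to 22.4 in ILK-K5, the macrophage sum is higher in all 3 ILK-K5 libraries, and the mast cell sum is lower in all 3.

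The Kit ligand Kitl (chr10:100015630-100100416, plus strand) was at 271, 298 and 300 normalized counts in the controls and 340, 278 and 484 in ILK-K5. ILK-K5 2 fell among the controls, and the controls were within a narrow range. The means were 290 ± 16.3 and 367 ± 106 (SD, n = 3 each), with a log2 fold change of 0.30 (SE 0.29, 95% interval -0.36 to 0.97, adjusted p = 0.817). Kitl is shed from the cell surface by proteases, of which Adam17 differed by 0.15 on the log2 scale (adjusted p = 0.909). Mmp9, a gelatinase that can release Kitl, was at 0, 1.52 and 4.35 in the controls and 41.0, 54.0 and 63.3 in ILK-K5 and rose (log2 fold change 4.48, SE 0.79, adjusted p = 0.0149). Mmp9 met the filter for testing only through ILK-K5 (control mean 1.96). With a library left out, its call held without control 1 or control 3 and was lost without control 2 (adjusted p = 0.0557) and without each ILK-K5 library (0.0556 to 0.114). Macrophages also make Mmp9, and the part of their markers in its values was not tested. Mmp9 is a gene that the study itself named, so its direction here is not independent evidence.

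Downstream of Kit, 2 of the 19 tested signalling genes of 22 were called higher and 0 lower, against 2.93% and 0.599% of all genes tested, with a median log2 fold change of 0.30, against 0.01. Lyn, a Src family kinase that binds Kit, was at 11.6, 15.2 and 26.1 normalized counts in the controls and 376, 403 and 305 in ILK-K5, a 20.5-fold difference (log2 fold change 4.35, SE 0.41, adjusted p = 5.83e-04), and was called in all 18 other settings. Grap, an adaptor of the Grb2 family found in lymphoid cells, was at 3.86, 3.04 and 12.3 in the controls and 31.9, 71.0 and 67.2 in ILK-K5 (log2 fold change 3.09, adjusted p = 0.0419). Grap met the filter for testing only through ILK-K5 (control mean 6.41). Its call held in 7 of 17 other settings and, with a library left out, only without control 3 (adjusted p = 0.0208), the other 5 giving 0.0696 to 0.246. The adaptor Gab2, at a log2 fold change of 2.63, did not pass (adjusted p = 0.0965). The adaptor Grb2 (0.49), the phosphatase Ptpn11 (0.00) and the kinase subunit Pik3r1 (0.06), used by many receptors, had adjusted p of 0.744, 0.999 and 0.969. Lyn is expressed in haematopoietic cells, and the macrophage and lymphoid markers were higher in the same libraries, and their part was not tested.

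Ednrb (chr14:103814625-103844402, minus strand) did not separate the genotypes. It was at 20.3, 16.7 and 16.0 normalized counts in the controls and 25.0, 11.6 and 8.77 in ILK-K5. ILK-K5 1 was the highest and ILK-K5 3 the lowest of all 6, and the log2 fold change was -0.33 (SE 0.63, 95% interval -1.74 to 1.08, adjusted p = 0.921). Its ligand gene Edn3 had 6, 0 and 13 reads in the controls and 0, 0 and 1 in ILK-K5 and was not tested. None of the 5 tested endothelin genes was called by limma at adjusted p, against 3.53% of all genes tested. At an unadjusted p under 0.05, 1 of the 5 was higher and 1 lower, against 1339 and 672 of 16368 genes tested. DESeq2 called Ednra lower (adjusted p = 0.00556). Ednra, the receptor for endothelin 1, was at 1549, 1042 and 562 in the controls and 404, 242 and 384 in ILK-K5, and every ILK-K5 library was below every control. It was 3.06-fold lower (log2 fold change -1.53, SE 0.40, adjusted p = 0.0800), and it passed without control 3 (-1.92, adjusted p = 0.0191) and with a term for the number in the sample description (adjusted p = 0.0137). In all it was called in 4 of 18 other settings. Edn2 was at 21.2, 10.6 and 19.6 in the controls and 31.9, 50.1 and 41.9 in ILK-K5, without overlap and without a call (1.25, adjusted p = 0.358). The endothelin-converting enzymes Ece1 and Ece2 had log2 fold changes of 0.40 and 0.69 with overlapping genotypes.

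Among 11 tested lineage transcription factors of 12, 3 were called higher and 0 lower, against 2.93% and 0.599% of all genes tested, and the median log2 fold change was 0.53, against 0.01 over all genes. Zeb2, which regulates melanoblast development and is also a factor of macrophages and dendritic cells, was at 297, 210 and 94.3 normalized counts in the controls and 2313, 1110 and 1145 in ILK-K5 (7.60-fold, log2 fold change 2.98, SE 0.46, adjusted p = 0.00720). It was called in all 18 other settings. Irf4, a factor of lymphoid and dendritic cells that also takes part in pigmentation, was at 26.0, 16.7 and 45.0 in the controls and 213, 153 and 100 in ILK-K5 (log2 fold change 2.42, SE 0.49, adjusted p = 0.0287). With a library left out its call held only without control 3 (adjusted p = 0.0168), and the other 5 fits gave 0.0512 to 0.142. The third was Tfec, which met the filter for testing only through ILK-K5. Pax3, the neural crest factor upstream of Mitf, was at 263, 196 and 60.2 in the controls and 228, 82.5 and 92.5 in ILK-K5, with overlap and a log2 fold change of -0.28 (adjusted p = 0.933). Foxd3, a neural crest gene, had 0 reads in all controls and 2 reads in 1 ILK-K5 library. The members of this list that were called are also expressed in myeloid and lymphoid cells, and the sums of those markers were higher in the same ILK-K5 libraries, whose part was not tested.

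Of 11 tested factors known to act on melanocytes from the follicle, out of 15 listed, 1 was called higher (Mmp9) and 0 lower, against 2.93% and 0.599% of all genes tested, with a median log2 fold change of -0.15, against 0.01. At an unadjusted p under 0.05, 2 were higher and 2 lower, against 1339 and 672 of 16368 genes tested. All ILK-K5 libraries lay below all controls for 3 of the 11, against 6.95% of all genes tested. The 3 were Bmp4, Tgfb2 and Nfib, and none of them passed the test. Bmp4, a ligand made by the dermal papilla, was at 20.3, 36.5 and 160 normalized counts in the controls and 9.11, 12.3 and 17.5 in ILK-K5, with control 3 far above the others (log2 fold change -1.90, SE 0.77, adjusted p = 0.332). Tgfb2, a ligand of the TGF-β pathway that acts on melanocyte stem cells, was at 316, 295 and 187 in the controls and 143, 152 and 168 in ILK-K5 (-0.75, SE 0.31, adjusted p = 0.357). Col17a1 and Nfib, keratinocyte genes needed to maintain melanocyte stem cells, had log2 fold changes of -0.34 (adjusted p = 0.853, overlapping) and -0.64 (adjusted p = 0.534, not overlapping). Hgf, the ligand of Met, was at 11.9 ± 14.8 normalized counts in the controls and 32.7 ± 7.82 in ILK-K5 (SD, n = 3 each), with overlapping libraries (adjusted p = 0.358). Asip was not analysed here. Schwann cell and neural crest genes, which mark the cells closest to melanocytes in origin, gave 0 of 7 tested called by limma at adjusted p, against 3.53% of all genes tested. At an unadjusted p under 0.05, 2 of the 7 were higher, against 1339 of 16368 genes tested. The Schwann and neural crest sum was 1045 to 1302 normalized counts in the controls and 1914 to 2205 in ILK-K5, without overlap. Ngfr, a neural crest receptor also found in skin epithelium and nerve, was higher by 1.24 on the log2 scale without passing (adjusted p = 0.0705).

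**Figure D5:**
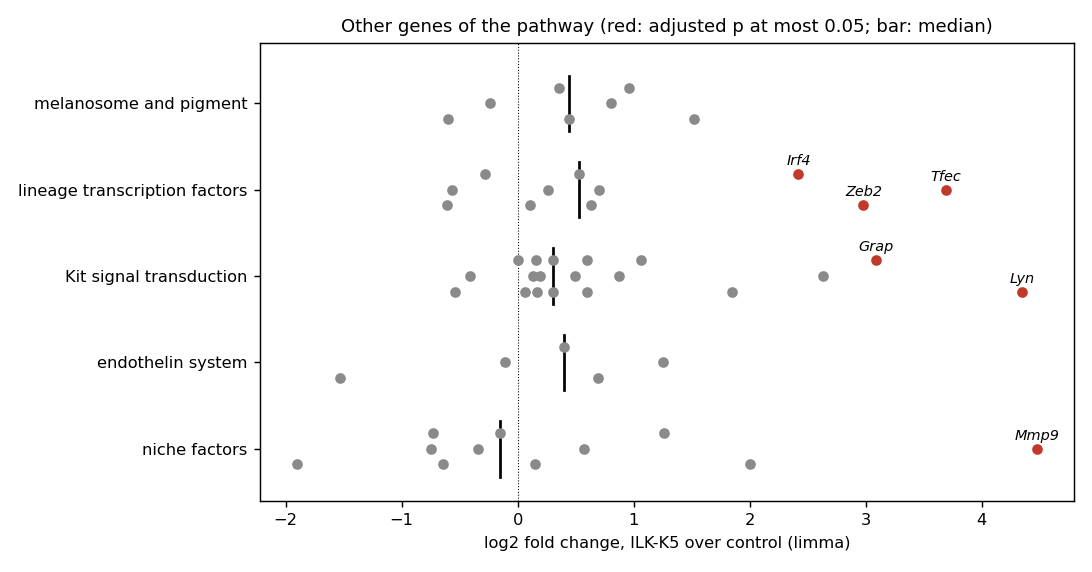
Log2 fold change (ILK-K5 minus control) of each tested gene in the lists of pigment, transcription factor, Kit signalling, endothelin and niche genes, with a bar at the median of each list and the called genes in red. The called genes, all higher, are Zeb2, Irf4, Tfec, Lyn, Grap and Mmp9, and most others lie within 1 log2 unit of 0.

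Levels were compared between genes per length of transcript, in FPKM. In the controls Mitf was highest at 14.3 ± 4.45 FPKM (SD, n = 3), followed by Kitl at 5.16 ± 0.289, Pmel at 3.01 ± 2.39 and Dct at 1.45 ± 0.396. Tyr was at 0.503 ± 0.303, Ednrb at 0.448 ± 0.0582 and Tyrp1 at 0.0964 ± 0.0924, and Mlana (0.0398), Sox10 (0.0365) and Kit (0.0178) were lower still. Neighbours in this order did not overlap at the steps from Mitf to Kitl, from Dct to Tyr and from Ednrb to Tyrp1. In ILK-K5 Kitl was highest at 6.53 ± 1.88 FPKM and Mitf second at 3.88 ± 0.613, without overlap. Pmel (3.14 ± 1.60), Dct (2.48 ± 1.57) and Tyrp1 (1.14 ± 0.678) followed, then Tyr (0.408 ± 0.234), Ednrb (0.384 ± 0.221) and Kit (0.376 ± 0.0211), whose values overlapped from each gene to the next. Mlana (0.138) and Sox10 (0.110) were lowest, and Kit lay above Mlana in every ILK-K5 library.

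Over the 6 libraries the 8 tested genes did not share 1 pattern. The correlations below are descriptions over 6 libraries of log2(normalized count + 1), and all genes share the same libraries and size factors. The genes closest to Mitf among 16367 others were Aspn, Snhg14 and Grem1 (each r = 0.993, log2 fold changes -1.99, -0.58 and -3.62). Ednra (log2 fold change -1.53) had r = 0.97 with Mitf, at rank 46. The genotype differences of these genes have the direction of that of Mitf, which already fixes their r in part. Grem1, a BMP antagonist, and Aspn, a matrix proteoglycan, are not pigment genes. The genes closest to Tyrp1 were Trpm1 (r = 0.986), Pvr (r = 0.985) and Lef1 (r = 0.984), and Trpm1 is itself a melanocyte gene. Both Tyrp1 and Trpm1 met the filter for testing only through ILK-K5 and were higher in every ILK-K5 library. That already fixes their r in part, so it does not show which cells held them. Kitl and Dct ran together at r = 0.971, the closest gene to Kitl and the second closest to Dct, behind Zfp383 (r = 0.982). Tyr ran closest to Sp4 (r = 0.983), Pmel to Napepld (r = 0.997) and Ednrb to Ranbp9 (r = 0.989), none of them a pigment gene. Between the tyrosinase relatives, r was 0.00 for Tyr and Tyrp1, and Tyr and Pmel had r = 0.78. Mitf ran against Tyrp1 (r = -0.81) and Kit (r = -0.88), which the direction of their genotype differences already fixes in part.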

How the data were processed

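RNA of 3 control and 3 ILK-K5 libraries was amplified with the NuGEN Ovation V2 kit, made into Nextera XT libraries and sequenced as read pairs. Per the labels and the study's methods, reads were aligned to GRCm38 with TopHat2 2.0.14 and Bowtie2 2.2.4 and normalized in DESeq2 1.6.3. The program and strand setting used for counting are not given in the sources used here. The authors deposited normalized counts, a signal in which every value (100%) was a whole number of reads divided by 1 size factor per library (tolerance 0.01), and an FPKM table, which is the same values scaled by gene length. The 4 deposited tables of the authors' own comparison hold fold changes, standard errors and p-values and were not used. Ensembl identifiers matched a symbol for 97.3% of 43274 genes.

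Genes that averaged 10 or more normalized counts over the 6 libraries were tested on log2(normalized count + 1) with limma 3.58.1 (moderated test with a trend, R 4.3.3, two-sided) and Benjamini-Hochberg adjustment over all genes tested, at 0.05. A gene that averaged below 10 in 1 genotype could enter the test only through the other genotype, and only as higher there. Fold changes on this scale understate the change of low genes. The genotype, with no other covariate, was the single term, and an exact permutation test of 3 against 3 cannot go below p = 0.1. Ratios of recovered reads carry exact 95% intervals that cover counting error only. edgeR 4.0.16 and DESeq2 1.42.0 were run on the recovered reads, and pseudocount, filter, scaling, table, a replicate block, a term for the number in the sample descriptions, and each library left out were also varied. The named genes are the 10 genes in every library, Ilk, the called genes of each list (up to 4 by p), any ligand, receptor or marker on which a sentence turns, and the 3 genes closest in correlation. Rab32, Rab38, Slc45a2, Gpr143, Mc1r, Trpm1, Gab2, Grb2, Ptpn11, Pik3r1, Edn2, Ece1, Ece2, Foxd3, Col17a1, Nfib, Hgf, Bmp4, Tgfb2, Cd3d, Ngfr, Adam17, Tfe3 and Tfeb were named after their values were seen. The 10 genes and the lists were chosen with earlier results of these data known. The lists were pigment, lineage factor, Kit signalling, endothelin, niche, Schwann and neural crest, mast cell, macrophage, lymphoid, Langerhans and dendritic, endothelial, fibroblast and papilla, and bulge keratinocyte genes.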

Additional observations from a re-analysis of the deposited data

How the results depend on the processing

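Of the 10 genes, Mitf stayed lower in every setting and was called in 16 of 18. The count of genes called higher, 0 in the main test, was 1 with a pseudocount of 5, 2 with DESeq2, 2 with the replicate block and 1 with the term for the number in the description, and 0 to 1 with a library left out (1 without control 2). The count called lower was 0 to 1 with a library left out, at 0 without control 2 or ILK-K5 2. Of the other pathway genes, 6 were called higher, 3 with a pseudocount of 0.1, 3 with a mean of at least 50 counts, 3 with replicates 2 and 3 alone, and 2 to 6 with a library left out (2 without control 2 or any 1 of the ILK-K5 libraries). The count called lower, 0, was 2 with DESeq2, 1 with the block, 1 with the description term, and 0 to 1 with a library left out (1 without control 3). Tyr turned to 0.03 with replicates 2 and 3 alone and ran from -0.68 to 0.20 with a library left out, and Pmel from -0.18 to 0.80. With replicates 2 and 3 alone Mitf fell by 1.70 (adjusted p = 0.0415).

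Same-numbered libraries deviated together with r = 0.53, 0.02 and 0.31, and not every library was closest to its own number, so the numbers were not taken as pairs. Under the replicate block Kit (3.81, adjusted p = 0.0375) and Tyrp1 (3.29, adjusted p = 0.0268) passed, as did Ednra, lower (adjusted p = 0.0124). Over all genes, 479 were called higher and 98 lower, 772 and 280 with DESeq2, 848 and 269 with the block, 846 and 286 with the description term, and 222 to 559 and 32 to 98 with a library left out. The causes were not tested. The few reads on Kit, Tyrp1, Sox10 and Mlana limit their precision.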
